A study of Mus musculus with 13 samples.

Results

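The genes described here are 9 genes of peroxisomal beta-oxidation, measured in the liver of control and streptozotocin-treated mice. They are Abcd3, Acox2, Ehhadh, Hsd17b4, Acaa1a, Acaa1b, Scp2, Crot and Pex11a, and all 9 were found among the 19938 named genes of the arrays. A gene was taken where a probe set named it alone. Each of the 9 had 1 such probe set. All mice were male C57BL/6N wild-type animals, 5 to 6 months old when the liver was taken. The 6 treated mice had received intraperitoneal streptozotocin (STZ), a toxin taken up by pancreatic beta cells and used to make a model of type 1 diabetes, at 65 mg/kg on each of 5 days. The 7 control mice were mock-injected with citrate buffer, although the design text of the series describes them by their standard diet. Injections began at 10 to 16 weeks of age, and tissue was collected 9 to 11 weeks after treatment. STZ also alkylates DNA in other cells that take it up, and the labels give neither blood glucose nor insulin.

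Peroxisomes shorten fatty acids that mitochondria handle poorly, such as very long-chain, branched-chain and dicarboxylic acids, and they also shorten the side chain of bile acid precursors. An acyl-CoA is imported, oxidised by an acyl-CoA oxidase that forms hydrogen peroxide, hydrated and dehydrogenated by a bifunctional enzyme, and cleaved by a thiolase, and the shortened product leaves as a carnitine ester or a free acid. In rodent liver many genes of this pathway are classical targets of PPARalpha, a nuclear receptor for fatty acids that binds DNA with RXR at a direct repeat of AGGTCA. Of the 9 genes, 8 encode a transporter or an enzyme, while Pex11a encodes a membrane protein of peroxisome division and is no enzyme of the pathway.

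In STZ livers the 9 genes did not move together. The thiolase genes Acaa1b, Acaa1a and Scp2, the importer Abcd3 and the division factor Pex11a fell, by 1.34-fold for Acaa1a up to 2.37-fold for Acaa1b. The oxidase Acox2 rose 1.23-fold. Both bifunctional enzyme genes, Ehhadh and Hsd17b4, and the carnitine transferase Crot did not pass the test. Passing means an adjusted p under 0.05 in limma, with the Benjamini-Hochberg adjustment over all 19938 genes. Each difference is the STZ mean less the control mean in log2 units, given with its standard error (SE). Thus 5 of the 9 were lower, 1 was higher and 3 did not pass, where 4.04% of all genes were lower, 5.09% higher and 9.12% called in either direction. The median difference was -0.42 for the 9 genes and -0.01 for all genes. The values of the groups did not overlap for 4 of the 9, against 3.86% of all genes. The 9 genes were chosen with earlier results of these data known, so these comparisons with all genes are a description and no test. The p values rest on the spread between mice together with that between arrays, since each mouse had 1 array.

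The array medians of the 13 livers lay between 6.22 and 6.31, and the mean of each of the 9 genes was above that of the median gene (6.65). Of 8 measured hepatocyte markers, 1 was higher and 2 lower, with a median difference of -0.02, and their mean level was 13.15 to 13.23 in controls and 13.15 to 13.18 in STZ livers. Of 10 macrophage markers 5 were higher and 0 lower, with a mean level of 8.66 to 9.06 in controls and 8.78 to 9.42 in STZ livers. Passing genes numbered 1 of 7 among the lymphocyte (lower), 1 of 7 among the endothelial (higher) and 3 of 7 among the stellate cell markers (2 higher, 1 lower). They numbered 0 of 5 among the neutrophil, 0 of 5 among the bile duct and 0 of 4 among the adipocyte markers. All 10 macrophage and all 5 neutrophil markers had a positive difference, with medians of 0.38 and 0.22, while 5 of the 7 lymphocyte markers had a negative one. The part of these other cells in the results was not tested. In whole liver RNA, fewer cells of a type and less RNA per cell cannot be told apart.

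Promoter sequences are shown first, for the pair of genes with the largest decreases, and for Acaa1a and Scp2 as examples of matches. Windows of the RefSeq promoter table (GRCm38.p6) were searched for 8 of the 9 genes, 10 windows in all. Hsd17b4 was left out of the search, so nothing is said of its promoter. The shares of all windows given below were not filtered in this way. The 250 bases before each listed start were searched on both strands. The PPARalpha site was searched as AGGTCA repeated after 1 spacer base, with up to 2 mismatches in its 12 fixed bases. None of the windows of the 8 genes held it, while 3.24% of the 32851 windows in the table did. At least 1 AGGTCA was in the window of 1 of the 8 genes, Scp2, and in 14.0% of all windows. The CCAAT box, a general promoter element, was in windows of 5 of the 8 genes and in 33.8% of all windows. These counts are per gene and the shares per window, and Acox2 and Abcd3 had 2 windows each. Acaa1a held 3 and Acaa1b 2 CCAAT matches, and 2.79% and 10.1% of all windows held at least that many. A match is a description of letters and not of binding, and these windows hold no distal elements. Whole windows are printed for the pair with the largest decreases, Acaa1b (chr9:119157094-119157343, minus strand) and Pex11a (chr7:79743132-79743381, minus strand). The 30-base stretches of Acaa1a (chr9:119341167-119341196, plus strand) and Scp2 (chr4:108118639-108118668, minus strand) show a pair of CCAAT matches and the AGGTCA match. Each is written from 5′ to 3′ along the gene, with CCAAT or its reverse complement ATTGG, or AGGTCA, in capitals.
Acaa1b: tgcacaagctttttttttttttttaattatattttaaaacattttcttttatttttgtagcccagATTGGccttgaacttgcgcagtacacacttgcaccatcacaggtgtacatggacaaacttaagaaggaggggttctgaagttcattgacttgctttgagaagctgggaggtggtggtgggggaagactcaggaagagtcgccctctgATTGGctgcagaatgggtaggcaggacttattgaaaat
Pex11a: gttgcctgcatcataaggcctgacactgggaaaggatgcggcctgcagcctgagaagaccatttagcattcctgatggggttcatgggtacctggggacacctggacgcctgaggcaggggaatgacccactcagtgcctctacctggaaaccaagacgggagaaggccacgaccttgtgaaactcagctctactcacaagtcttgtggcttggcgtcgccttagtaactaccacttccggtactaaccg
Acaa1a: ttacgATTGGcttccgtaggATTGGcgggc
Scp2: gtctaacacagtAGGTCAaaagaacccata
The Pex11a window has no capitals because neither motif was found in it. The ATTGG nearest to the start of Acaa1b begins 38 bases before it, and the 2 printed for Acaa1a begin 122 and 107 bases before the start.

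**Figure D1:**
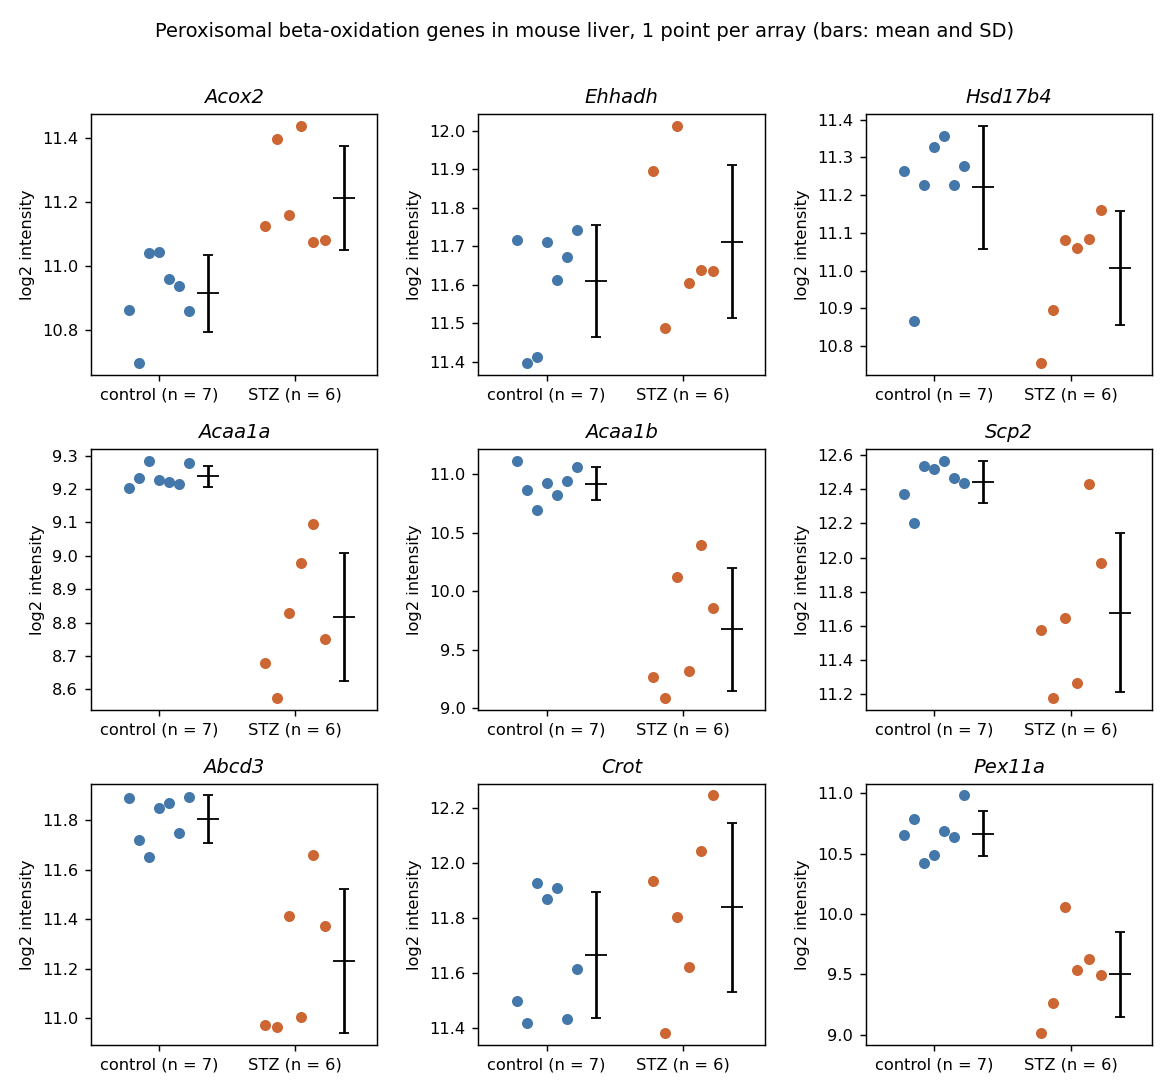
Log2 intensity (vertical axis) of the 9 genes in each of the 7 control and 6 STZ livers, 1 point per array in order of replicate number, with the mean and SD as bars; each panel has its own axis range. Acaa1b, Acaa1a and Pex11a lay below every control in 6 of 6 STZ arrays and Acox2 above every control, while Scp2 and Abcd3 overlapped the controls by 1 STZ array.

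Import into the peroxisome was represented by Abcd3 (probe set 10501832), which encodes PMP70, an ABC transporter of long- and branched-chain acyl-CoA. Its log2 intensity ran from 11.65 to 11.89 with a median of 11.85 in the 7 controls, and from 10.96 to 11.66 with a median of 11.19 in the 6 STZ livers. The groups overlapped by STZ replicate 5, at 11.66, which just exceeded the lowest control, and the other 5 STZ arrays lay below every control. Abcd3 fell from 11.80 ± 0.10 (SD, n = 7) to 11.23 ± 0.29 (SD, n = 6), a difference of -0.57 ± 0.10 (SE, adjusted p = 0.00195 in limma), or 1.49-fold. Without STZ replicate 5 the difference was -0.66, and without STZ replicate 2 it was -0.52, the ends of the range when 1 array was left out.

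The oxidation step was represented by Acox2 (probe set 10417544), the branched-chain acyl-CoA oxidase that acts on the side chain of bile acid precursors. It was the single gene of the 9 that rose. Control values ran from 10.70 to 11.04 with a median of 10.94, and STZ values from 11.08 to 11.44 with a median of 11.14. The groups did not overlap, with STZ replicates 4 and 2 the highest at 11.44 and 11.40. The means were 10.91 ± 0.12 (SD, n = 7) and 11.21 ± 0.16 (SD, n = 6), a difference of 0.30 ± 0.08 (SE, adjusted p = 0.0184 in limma).

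The bifunctional enzymes catalyse the middle steps. Ehhadh (probe set 10438575) encodes the L-bifunctional enzyme, which takes part in the oxidation of dicarboxylic acids and is a well-known PPARalpha target. Its values ran from 11.40 to 11.74 in controls (median 11.67) and from 11.49 to 12.01 in STZ livers (median 11.64), and the groups overlapped, with 2 of the 6 STZ arrays above every control. The difference was 0.10 ± 0.09 (SE, adjusted p = 0.580 in limma), with a 95% interval from -0.08 to 0.29, and it was 0.04 without STZ replicate 3, 0.07 without STZ replicate 1 and 0.07 without control replicate 2. Hsd17b4 (probe set 10455656) encodes the D-bifunctional enzyme, which handles branched-chain and bile acid intermediates. Its values ran from 10.87 to 11.36 in controls (median 11.27) and from 10.76 to 11.16 in STZ livers (median 11.07). All 6 STZ arrays lay below the control mean, but 5 of the 6 overlapped the controls because control replicate 2, at 10.87, lay far under the other controls (11.23 or more). The Hsd17b4 difference was -0.21 ± 0.08 (SE, adjusted p = 0.128 in limma), with a 95% interval from -0.39 to -0.04. Without control replicate 2 it was -0.27 with an adjusted p of 0.0185 in limma. Of the 13 fits that each left out 1 array, Hsd17b4 passed in that 1 only, and it passed in 0 of the 9 other alternatives. Without STZ replicate 1 its difference was -0.16.

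Whether the bifunctional enzymes changed unequally was tested on the log2 difference Ehhadh minus Hsd17b4 within each array. Only the change of this quantity is read, since the levels of different probe sets cannot be compared. It ran from 0.19 to 0.53 in controls (median 0.45) and from 0.48 to 1.14 in STZ livers (median 0.57). STZ replicates 1 and 3, at 1.14 and 0.93, stood highest, and 1 of the 6 STZ arrays overlapped the controls. The mean was 0.39 ± 0.12 (SD, n = 7) in controls and 0.71 ± 0.27 (SD, n = 6) in STZ livers, a difference of 0.32. The exact 2-sided permutation test over all assignments of the 13 arrays gave p = 0.00117, also 0.00117 after adjustment over the 2 pairs tested. The change in log2 signal was therefore unequal by this test, although neither gene passed on its own. STZ replicates 2, 4, 5 and 6 ran from 0.48 to 0.59, close to the highest control at 0.53. Without STZ replicate 1 the difference was 0.23. Whether the probe sets of Ehhadh and Hsd17b4 respond alike was not tested. The pairs were chosen with earlier results of these data known, so the p values of the pairs are not those of a pre-set test.

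The thiolase step held 3 of the 5 genes that fell. Acaa1b (probe set 10597592), 1 of the pair of mouse genes for the straight-chain 3-ketoacyl-CoA thiolase, ran from 10.70 to 11.12 in controls (median 10.92) and from 9.09 to 10.39 in STZ livers (median 9.59). No STZ array reached the lowest control. STZ replicates 2, 1 and 4 were the lowest, at 9.09, 9.27 and 9.32, and STZ replicate 5 the highest. Acaa1b fell from 10.92 ± 0.14 (SD, n = 7) to 9.67 ± 0.53 (SD, n = 6), a difference of -1.24 ± 0.17 (SE, adjusted p = 0.000254 in limma), or 2.37-fold.

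Acaa1a (probe set 10590137), its close paralog on the same chromosome, had values of 9.20 to 9.29 in controls (median 9.23) and 8.57 to 9.09 in STZ livers (median 8.79). Its controls were the tightest of the 9 genes, with an SD of 0.03, against 0.19 in STZ livers. Again no STZ array reached the lowest control. The difference was -0.42 ± 0.07 (SE, adjusted p = 0.00127 in limma), or 1.34-fold. Probes of the paralogs can cross-hybridise, so part of the signal of each may come from the other, which was not tested.

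The log2 signal of Acaa1b changed more than that of Acaa1a. Whether their probe sets respond alike, or how shared signal enters this contrast, was not tested. The difference Acaa1b minus Acaa1a within an array ran from 1.41 to 1.91 in controls (median 1.70) and from 0.34 to 1.30 in STZ livers (median 0.85). The groups did not overlap, and STZ replicates 4, 2 and 1 stood lowest. The mean was 1.68 ± 0.16 (SD, n = 7) in controls and 0.86 ± 0.42 (SD, n = 6) in STZ livers, a difference of -0.82. The exact 2-sided permutation test gave p = 0.000583, the smallest this design allows, and 0.00117 after adjustment over the 2 pairs.

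**Figure D2:**
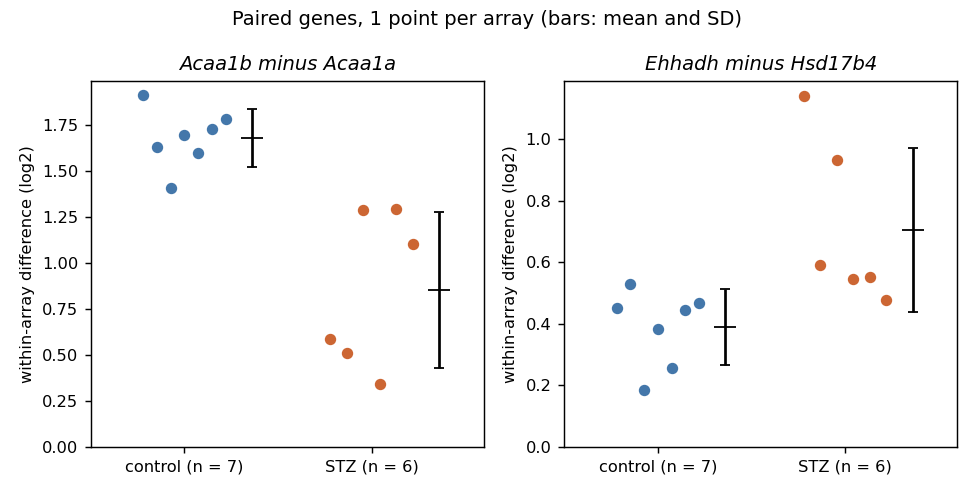
Within-array log2 difference (vertical axis) of Acaa1b minus Acaa1a and of Ehhadh minus Hsd17b4 in each control and STZ liver, 1 point per array, with the mean and SD as bars. For Acaa1b minus Acaa1a the STZ arrays (0.34 to 1.30) lay below all controls (1.41 to 1.91), and for Ehhadh minus Hsd17b4 the STZ mean was 0.71 against 0.39.

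Scp2 (probe set 10514956) encodes both SCPx, the thiolase for branched-chain and bile acid intermediates, and the smaller sterol carrier protein 2, which binds lipids. The probe set gives 1 value for the gene and the products were not told apart. Control values ran from 12.21 to 12.57 (median 12.47) and STZ values from 11.18 to 12.43 (median 11.61). STZ replicate 5, at 12.43, lay within the controls, while the other 5 STZ arrays, at 11.97 or less, lay below every control. Scp2 fell from 12.44 ± 0.12 (SD, n = 7) to 11.68 ± 0.46 (SD, n = 6), a difference of -0.77 ± 0.15 (SE, adjusted p = 0.00438 in limma). With the exact rank-sum test over all genes Scp2 did not pass (adjusted p = 0.0628). Its difference was -0.92 without STZ replicate 5 and -0.67 without STZ replicate 2, the ends of the range when 1 array was left out.

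Export was represented by Crot (probe set 10528102), the carnitine octanoyltransferase that turns shortened acyl-CoA into carnitine esters for the mitochondria. Its values ran from 11.42 to 11.93 in controls (median 11.61) and from 11.38 to 12.24 in STZ livers (median 11.87). The groups overlapped on both sides, with 3 STZ arrays above every control and STZ replicate 2 below them all. The difference was 0.17 ± 0.13 (SE, adjusted p = 0.517 in limma), with a 95% interval from -0.10 to 0.44. It was 0.09 without STZ replicate 6 and 0.26 without STZ replicate 2.

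Pex11a (probe set 10564805), whose product elongates the peroxisomal membrane before division and is induced by peroxisome proliferators, had the smallest p of the 9. Its values ran from 10.42 to 10.98 in controls (median 10.65) and from 9.02 to 10.06 in STZ livers (median 9.52). No STZ array reached the lowest control, and STZ replicates 1 and 2 were the lowest, at 9.02 and 9.27. Pex11a fell from 10.67 ± 0.19 (SD, n = 7) to 9.50 ± 0.35 (SD, n = 6), a difference of -1.17 ± 0.13 (SE, adjusted p = 3.90e-05 in limma), or 2.24-fold.

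The STZ arrays differed in how far these genes were lowered. Each mouse had 1 array, so spread between mice and spread between arrays cannot be told apart. Averaged over the 5 genes that fell, the STZ arrays ran from -1.20 (STZ replicate 2) to -0.37 (STZ replicate 5) log2 units relative to the control mean, while the controls ran from -0.10 to 0.12. STZ replicate 2 had the lowest STZ value for 4 of the 5 genes, all but Pex11a. STZ replicate 5 had the highest for 4 of the 5, again all but Pex11a, which was highest in replicate 3. In replicate 5 the deviation from the control mean was -1.04 for Pex11a, -0.01 for Scp2 and -0.14 for Abcd3. The SD was larger in STZ livers for 8 of the 9 genes, all but Hsd17b4, and by up to 6.14 times, for Acaa1a. These averages describe the arrays over genes already known to have fallen and are no test.

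**Figure D3:**
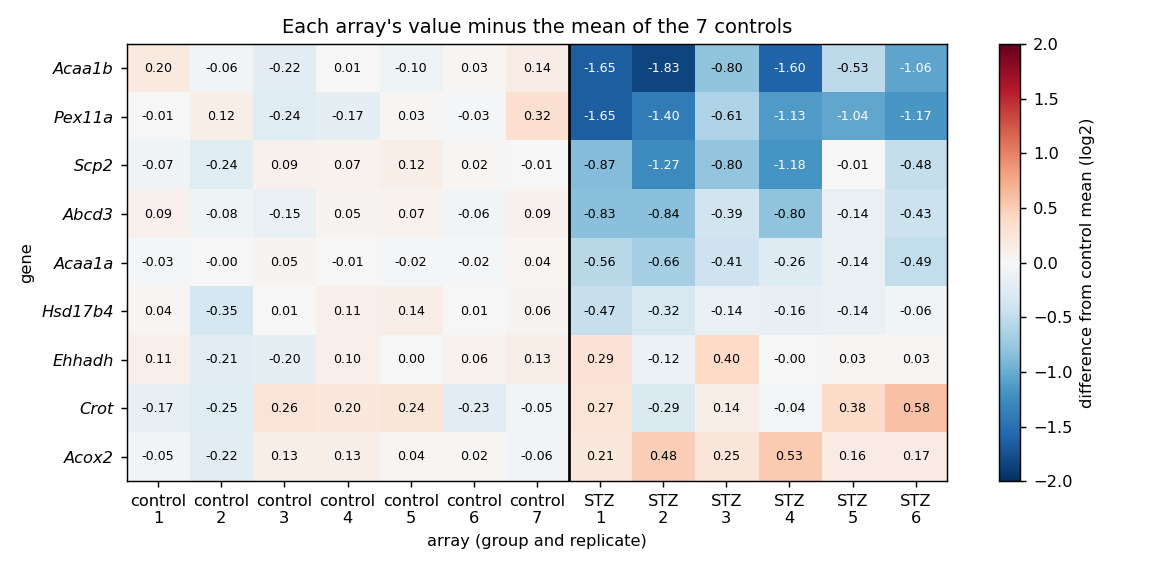
Each array's log2 value minus the mean of the 7 controls, for the 9 genes (rows) in the 13 arrays (columns), with the value printed in each cell and blue for lower. The cells of Acaa1b and Pex11a are blue in all 6 STZ arrays, STZ replicate 5 is pale for Scp2 (-0.01) and Abcd3 (-0.14), and Acox2 is red in all 6.

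By a rule based on the distance between profiles (the root mean square over the 13 arrays, after subtracting the control mean), the other genes most like Acaa1b were Ttc39c and Mme, at distances of 0.18 and 0.18 log2 units. Their differences were -1.29 ± 0.18 and -1.14 ± 0.23 (SE). The nearest to Pex11a were Paqr7 and Trp53inp2, at 0.17 and 0.21, with differences of -1.10 ± 0.12 and -0.96 ± 0.12 (SE). These 4 are a description of likeness over these arrays and carry no test.

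Other genes of peroxisomal beta-oxidation, taken from a list, mostly did not pass. Of the 23 measured, 3 were lower, 3 higher and 17 not called, with a median difference of -0.06. Nudt7, a peroxisomal diphosphatase of coenzyme A and acyl-CoA, ran from 12.26 to 12.51 in controls and from 9.79 to 12.19 in STZ livers without overlap, and fell by 1.62 ± 0.28 (SE, adjusted p = 0.00138 in limma). The very long-chain acyl-CoA synthetase Slc27a2 (-0.17 ± 0.04) and the peroxisomal protease Lonp2 (-0.30 ± 0.08) were the other lower genes. Eci3, an enoyl-CoA isomerase gene and paralog of Eci2, was higher by 1.42 ± 0.29 (SE, adjusted p = 0.00464 in limma), but it was dim in controls (4.95 ± 0.14, SD, n = 7). The thioesterase Acot6 (0.47 ± 0.12), whose probes may also detect its paralogs, and the diphosphatase Nudt19 (0.46 ± 0.12) were also higher. Without STZ replicate 1, or with the rank-sum test, 3 of the 23 genes passed in place of 6. Of the 13 fits that each left out 1 array, Slc27a2 passed in 11 (not without control replicate 1 or STZ replicate 1), Lonp2 in 7 and Nudt19 in 8. Acot6, Lonp2 and Nudt19 did not pass with the rank-sum test (adjusted p = 0.0874 for Acot6), nor Lonp2 and Nudt19 with all probe sets tested.

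Of the genes of peroxisome assembly and division, 16 were measured. Of these, 3 were lower and 0 higher, 14 had a negative difference, and the median was -0.06. Pex6, an ATPase that recycles the import receptor, fell from 8.84 ± 0.08 (SD, n = 7) to 8.39 ± 0.13 (SD, n = 6), a difference of -0.45 ± 0.06 (SE, adjusted p = 0.000212 in limma), with no overlap of the groups. The membrane assembly factors Pex16 (-0.25 ± 0.05) and Pex3 (-0.23 ± 0.06) fell as well, although Pex3 missed the threshold with the rank-sum test (adjusted p = 0.0628). Among 18 other peroxisomal enzyme genes, 2 were lower, 1 was higher and the median was -0.01. Glycolate oxidase Hao1, which ran from 9.88 to 10.46 in controls and from 7.26 to 9.91 in STZ livers, fell by 1.80 ± 0.28 and the epoxide hydrolase Ephx2 by 0.45 ± 0.08, while the glyoxylate aminotransferase Agxt was 0.81 ± 0.16 higher (differences with SE). The hydrogen peroxide-degrading enzyme catalase, Cat, had a difference of -0.11 ± 0.05 (SE, adjusted p = 0.215 in limma).

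Mitochondrial beta-oxidation, the parallel pathway for long- and medium-chain fatty acids, is the nearest group of genes for comparison. Of its 17 measured genes, 3 were lower, 0 were higher and the median difference was -0.04. The largest difference was that of the isomerase Eci1, -0.34 ± 0.07 (SE, adjusted p = 0.00562 in limma), which was smaller in size than those of the 5 lower genes among the 9. The carnitine-acylcarnitine carrier Slc25a20 (-0.31 ± 0.08) and the mitochondrial thiolase Acaa2 (-0.16 ± 0.05) were the others. Of the 13 fits without 1 array, Slc25a20 passed in 8 and Acaa2 in 3, and neither passed with the rank-sum test or with all probe sets tested. A single gene of the 17 passed without control replicate 1, 4, 5 or 7 or without STZ replicate 1, and also with the rank-sum test or with all probe sets tested. Whether the lists differ was not tested.

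**Figure D4:**
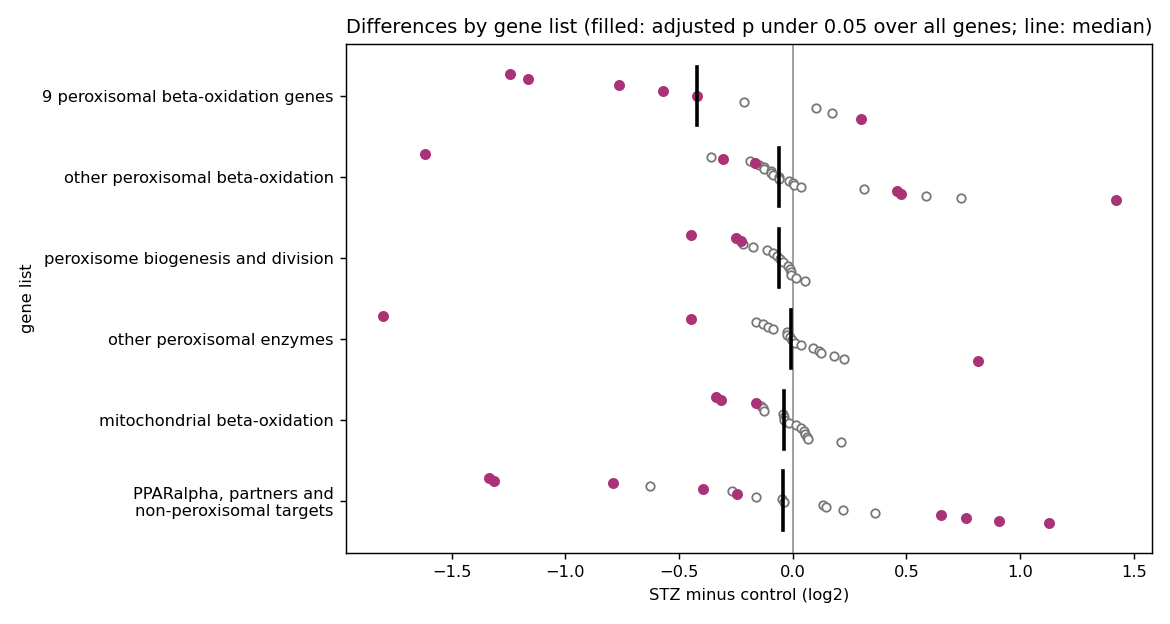
Difference STZ minus control (horizontal axis, log2) of each measured gene in 6 lists (rows), with filled points for genes with an adjusted p under 0.05 over all genes and a black line at the list's median. The median of the 9 peroxisomal beta-oxidation genes was -0.42, and those of the other lists lay between -0.06 and -0.01. Genes and lists were chosen with earlier results of these data known.

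PPARalpha, its partners and its targets outside the peroxisome went both ways, with 5 lower, 4 higher and 9 not called of 18 measured and a median of -0.04. The receptor gene Ppara itself ran from 10.67 to 11.13 in controls and from 9.94 to 10.37 in STZ livers, with no overlap, and fell by 0.79 ± 0.09 (SE, adjusted p = 3.90e-05 in limma). The lipid droplet gene Cidec (-1.34 ± 0.18), the fatty acid-binding protein gene Fabp1 (-1.31 ± 0.25), the lipid droplet coat gene Plin2 (-0.40 ± 0.10) and the transcription factor gene Creb3l3 (-0.25 ± 0.06) were also lower. In contrast the omega-hydroxylase genes Cyp4a14 (1.13 ± 0.28) and Cyp4a10 (0.76 ± 0.12), which can cross-hybridise, were higher. So were the fatty acid uptake receptor Cd36 (0.65 ± 0.12) and the coactivator Ppargc1a (0.91 ± 0.17). Omega-hydroxylation begins the route to the dicarboxylic acids that peroxisomes oxidise. Cyp4a14 ran from 10.07 to 12.36 in controls, with replicate 3 far below the rest, and from 12.50 to 13.11 in STZ livers. It missed the threshold when limma used robust variances with a trend (adjusted p = 0.0579). Plin2 lost its call without control replicate 5 or STZ replicate 1 and with all probe sets tested (adjusted p = 0.0559 in limma). Creb3l3 lost its call without STZ replicate 1 and with the rank-sum test (adjusted p = 0.0628). The partner Rxra had a difference of -0.04 ± 0.06 (SE) and did not pass (adjusted p = 0.791 in limma).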

How the data were processed

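Liver RNA of 7 control and 6 STZ mice was measured on 1 Affymetrix mouse gene array each. The table deposited by the authors gives a log2 intensity for each of 35556 probe sets. Per the submitters' processing notes, these come from RMA as run by Affymetrix Expression Console 1.2. RMA brings arrays to a common distribution, so an overall change in RNA per cell is not seen, and there are no detection calls. The genome build is not given in the sources used here. The platform annotation named 21789 probe sets with 1 symbol, 1621 with several and did not list 12146. The brightest probe set stood for each of 19938 genes. No dim gene was removed.

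Groups were compared with limma 3.58.1 in R 4.3.3 (lmFit, eBayes, 11 residual degrees of freedom) and Benjamini-Hochberg adjustment. Pairs of genes were tested by exact permutation; 2 pairs were tested, and some listed items are not reported here. The named genes were the 9, up to 3 passing genes per list and the nearest profiles. Slc27a2, Lonp2, Nudt19, Cat, Ppara, Plin2, Creb3l3, Cyp4a10, Cd36, Ppargc1a and Rxra were added after their values were seen. The genes, lists and pairs were chosen with earlier results of these data known. Replicate numbers do not pair the mice. Alternatives were other normalizations, variance models, probe rules and tests, and leaving out arrays. The number of arrays limits the precision.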

Additional observations from a re-analysis of the deposited data

Results flagged for a closer look

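Values far from the rest of their group were looked for in 82 groups of values, by the gap to the nearest array relative to the range of the group, and chance marks about 1 in 20 groups. There were 8 such values. In control replicate 2 Hsd17b4 (10.87, next 11.23), Hao1 (9.88, next 10.34), Slc25a20 (10.36, next 10.66) and Acaa2 (12.99, next 13.08) were far below the other controls. Cidec was high in STZ replicate 4 (7.00, next 6.64). Cyp4a14 was low in control replicate 3 (10.07, next 11.78) and in STZ replicate 5 (12.50, next 12.88). Cyp4a10 was also low in control replicate 3 (11.11, next 11.72).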

How the results depend on the processing

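The count of 5 genes that fell among the 9 was 5 to 6 when an array was left out, 4 with the rank-sum test and 5 in each of the other 8 alternatives. The count that rose was 1 throughout, except 0 with the replicate block, where Acox2 had an adjusted p of 0.0662 in limma. Acot6, Pex3, Slc27a2, Slc25a20, Acaa2 and Creb3l3 also lost their calls with that block. No called difference of a named gene changed direction. Over all genes 1088 passed with the rank-sum test, against 1819. The replicate numbers of the titles do not pair the mice (correlations of same-numbered deviations over genes from -0.09 to 0.19; 1 of 6 STZ arrays was most like its own number). With the replicate block the pair differences were -0.81 and 0.33, each with p = 0.0313 in the exact sign-flip test, the smallest that 6 pairs allow. Leaving out an array gave -0.91 to -0.72 for Acaa1b minus Acaa1a and 0.23 to 0.36 for Ehhadh minus Hsd17b4. Passing mitochondrial genes numbered 1 with all probe sets tested, with the rank-sum test and with the replicate block, and 1 to 4 without an array. Passing genes in the other peroxisomal beta-oxidation list numbered 3 with the rank-sum test and 3 to 7 without an array. The sample labels carry numbers, 1 to 7 in the controls and 29 to 32, 40 and 42 in the STZ livers. An effect of that order therefore cannot be told apart from the treatment. With the 4 STZ arrays of consecutive label numbers (29 to 32), Scp2 was -1.03 and Acaa1b -1.47, against -0.77 and -1.24 with all 6. Crot was 0.02 against 0.17. The arrays left out there, with labels 40 and 42, were STZ replicates 5 and 6. Their Scp2 values lay -0.01 and -0.48 from the control mean, and those of labels 29 to 32 lay from -1.27 to -0.80. Whether the STZ arrays differ with label number was not tested. The array count, and for dim genes the signal, limit what could be detected.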
